A study of Rattus norvegicus with 4 samples.

Results

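The miR-30 guide strands are the mature microRNAs (miRNAs) cut from the 5′ arms of the miR-30 hairpins: rno-miR-30a, rno-miR-30b-5p, rno-miR-30c, rno-miR-30d and rno-miR-30e (rno, for the rat, is left out from here on). They were taken by name, leaving out the passenger strands of the same hairpins, and all 5 were found among the 350 rat miRNAs on the arrays. The tissue was the gracilis, which lies in the thigh, and the animals were male Sprague-Dawley rats. By their labels, the 2 ischemia-reperfusion samples came from muscle deprived of blood for 4 h and then reperfused, and the 2 sham samples from muscle of operated animals without that injury. Reperfusion lasted 4 h by the sample labels and 24 h by the series text, and the files do not settle which. Age, the details of the sham operation and any pooling of animals are not stated in the labels, and each sample is labelled as whole muscle, with all the cells it holds.

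A miRNA finds its target messenger RNAs mainly through its seed, bases 2 to 8 from the 5′ end, and the miR-30 guides share 1 seed and so much of their predicted target range. The family is abundant in heart and skeletal muscle. In rat heart cells its members repress connective tissue growth factor and limit mitochondrial fission, and in human cancer cells miR-30a represses the autophagy gene Beclin 1. The hairpins sit in neighbouring pairs: Mir30a with Mir30c2, Mir30c1 with Mir30e, and Mir30b with Mir30d.

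The mature sequences show what the guides share and where they part. RefSeq sequences on build GRCr8 were matched for 3 of the 5 guides and are printed 5′ to 3′ with the seed in capitals. miR-384-5p is shown because it has the same seed and was also on the arrays, and miR-30a* because it is the passenger strand of the Mir30a hairpin and has another seed.
miR-30a: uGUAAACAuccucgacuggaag
miR-30e: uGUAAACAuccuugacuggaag
miR-30c: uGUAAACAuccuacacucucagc
miR-384-5p: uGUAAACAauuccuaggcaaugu
miR-30a*: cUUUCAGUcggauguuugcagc
Counted from 1 at the 5′ end, miR-30a and miR-30e differed at 1 of 22 positions (C13U). miR-30a and miR-30c were identical over the first 12 bases and differed at 5 of 22 positions (C13A, G14C, G18C, G19U and A20C), all beyond the seed. miR-384-5p left the miR-30a sequence right after the seed, with 12 of 22 positions identical.

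The guide miR-30a was read from the plus strand at chr9:33233946-33233967, and miR-30e from the minus strand at chr5:139637504-139637525. miR-30c is made from both of its hairpins, with the same mature sequence at chr9:33253695-33253717 (plus strand) and at chr5:139634505-139634527 (minus strand), so its signal does not tell the hairpins apart. The Mir30a and Mir30c2 hairpins are 19670 bases apart, and Mir30c1 and Mir30e are 2906 bases apart within the span of Nfyc, which encodes a subunit of the transcription factor NF-Y. The Mir30a hairpin shows how both strands lie in 1 precursor, with the guide and then the passenger strand in capitals:
Mir30a, chr9:33233941-33234011, plus strand: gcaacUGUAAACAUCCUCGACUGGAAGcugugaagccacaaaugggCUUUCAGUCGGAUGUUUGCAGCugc

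The arrays measured 1 colour (Cy3), and each value is the total signal of a miRNA after background subtraction, in scanner units, with the scanner software's own error. Ischemia-reperfusion replicates 1 and 2 detected 174 and 121 miRNAs, and sham replicates 1 and 2 detected 158 and 187. The median signal of the 78 miRNAs detected on all 4 arrays was 34.8 units on ischemia-reperfusion replicate 2, against 223 to 558 units on the other arrays. That array also held 0 of 5 skeletal muscle miRNAs above detection (miR-1, miR-133a, miR-133b, miR-206 and miR-499, from −1.49 to 8.10 units), where the other 3 arrays each detected all 5. It detected 6 of 7 epithelial miRNAs, all but miR-429, with a summed signal of 582 units, against 2 of 7 and 351 units on ischemia-reperfusion replicate 1 and 0 of 7 on each sham array. Conversely, ischemia-reperfusion replicate 1 and sham replicate 2 lay closest: their log2 signals had an SD of log2 ratios of 0.27, against 1.95 for ischemia-reperfusion replicates 1 and 2 and 1.33 for sham replicates 1 and 2. The markers of the library labelled ischemia-reperfusion replicate 2 go against its label as gracilis, and whether it holds gracilis RNA is not settled by the files. Sham replicate 1 also stood apart from the nearest 2 arrays, here after the scaling by the 75th percentile described below. Its 4 leukocyte miRNAs summed to 0.286, against 4.13 on ischemia-reperfusion replicate 1 and 4.23 on sham replicate 2. Its 2 endothelial miRNAs summed to 1.31, against 0.235 and 0.201 on those arrays. Unscaled, miR-150 went the other way from the other leukocyte miRNAs, with 551 units, against 210 and 189 units. Results are therefore given for each array, under the names the labels give, and group differences are given with and without ischemia-reperfusion replicate 2.

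All 5 guides were detected on all 4 arrays, so each has a measured level in every sample. To compare arrays, every signal was expressed relative to the 75th percentile of the same array, taken over the 78 miRNAs detected everywhere, and 1 on this scale is that percentile. In whole muscle, fewer cells that hold a miRNA and less of it per cell cannot be told apart. The probes differ in how strongly they respond, so a level is compared only for the same miRNA between arrays.

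miR-30a gave 2091 and 21.5 units on the ischemia-reperfusion arrays (scanner error 160 and 2.97 units), against 7336 and 2716 units on the sham arrays (572 and 207 units). After scaling these were 2.10 and 0.234 on the ischemia-reperfusion arrays, against 2.17 and 2.32 on the sham arrays. The sham replicates and ischemia-reperfusion replicate 1 lay close together, and replicate 2 lay 9.59-fold below the sham mean. The log2 difference between the groups was −1.68 ± 1.34 (SE, n = 2 per group; limma adjusted p = 0.817), within the spread of 3.17 between the ischemia-reperfusion replicates. With ischemia-reperfusion replicate 2 left out the difference was −0.0946, and with replicate 1 left out it was −3.26 (limma adjusted p = 0.0957), where the lone array is assumed to vary like the sham arrays.

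miR-30e, from a hairpin within Nfyc, had a pattern like that of miR-30a. It gave 1030 and 13.2 units on the ischemia-reperfusion arrays (scanner error 82.0 and 2.70 units), against 3654 and 1443 units on the sham arrays (301 and 115 units). The scaled levels were 1.03 and 0.144 on the ischemia-reperfusion arrays, against 1.08 and 1.23 on the sham arrays. Replicate 2 lay 8.03-fold below the sham mean, and ischemia-reperfusion replicate 1 lay just below sham replicate 1. Between the groups miR-30e differed by −1.58 ± 1.27 (SE, n = 2 per group; limma adjusted p = 0.817) on the log2 scale, and by −0.157 without ischemia-reperfusion replicate 2 and −3.01 without replicate 1.

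miR-30c, the guide with hairpins at both neighbouring pairs printed above, gave 627 and 38.3 units on the ischemia-reperfusion arrays, against 3455 and 752 units on the sham arrays. Scaled, it stood at 0.630 and 0.416 on the ischemia-reperfusion arrays, against 1.02 and 0.642 on the sham arrays. Both ischemia-reperfusion arrays lay below both sham arrays, but replicate 1 and sham replicate 2 were only 0.027 apart on the log2 scale, less than the scanner error of their difference (0.17). On the log2 scale the groups differed by −0.66 ± 0.93 (SE, n = 2 per group; limma adjusted p = 0.817). It was −0.362 with ischemia-reperfusion replicate 2 left out, −0.326 with sham replicate 1 left out and −0.997 with sham replicate 2 left out.

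miR-30b-5p gave 375 and 27.6 units on the ischemia-reperfusion arrays, against 2109 and 408 units on the sham arrays. The scaled levels were 0.377 and 0.30 on the ischemia-reperfusion arrays, against 0.624 and 0.348 on the sham arrays, and the groups overlapped. The spread between the sham replicates, 0.84 on the log2 scale, was larger than the group difference of −0.47 ± 0.93 (SE, n = 2 per group; limma adjusted p = 0.841). The difference was −0.0483 with sham replicate 1 left out, −0.89 with sham replicate 2 left out and −0.305 with ischemia-reperfusion replicate 2 left out.

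miR-30d, which in mouse beta cells promotes insulin transcription, gave 589 and 34.5 units on the ischemia-reperfusion arrays, against 1064 and 715 units on the sham arrays. Scaled, it was at 0.592 and 0.375 on the ischemia-reperfusion arrays, against 0.315 and 0.611 on the sham arrays. Both ischemia-reperfusion arrays lay between the sham arrays, and sham replicate 1 was the lowest of all. The group difference was 0.10 ± 0.96 on the log2 scale (SE, n = 2 per group; limma adjusted p = 0.980). Its sign turned when sham replicate 1 (−0.375) or ischemia-reperfusion replicate 1 (−0.226) was left out and under 4 of 5 other scalings. It was 0.43 with ischemia-reperfusion replicate 2 left out and 0.58 with sham replicate 2 left out.

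**Figure D1:**
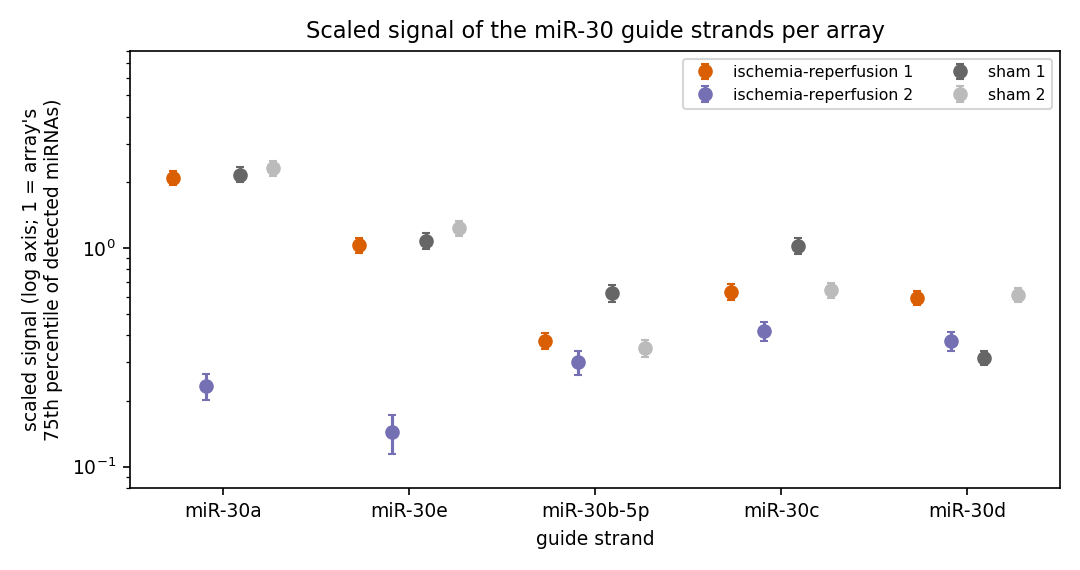
Scaled signal (log axis, 1 is the array's 75th percentile of detected miRNAs) of each guide on the 2 ischemia-reperfusion and the 2 sham arrays, with bars for the scanner error. On ischemia-reperfusion replicate 2 miR-30a (0.234) and miR-30e (0.144) lie far below the other 3 arrays, while the 4 arrays lie closer together for miR-30b-5p, miR-30c and miR-30d.

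Across the family, 0 of the 5 guides passed limma's test with Benjamini-Hochberg adjustment over all 159 tested miRNAs, which were those that both arrays of 1 group or the other had detected, where 0% of the tested miRNAs were called higher and 0% lower. At an unadjusted p under 0.05 limma called 0 guides and 2 of the 159 miRNAs (1.26%). Of the 5 differences 4 were negative, as were 38.4% of those of all tested miRNAs. The median was −0.66 for the guides and 0.45 for all tested miRNAs. Both ischemia-reperfusion arrays lay below both sham arrays for 3 of the 5 guides, miR-30a, miR-30c and miR-30e, against 13.2% of the tested miRNAs, and above them for 0, against 11.9%. For these 3 guides the gap between the groups was 0.027 to 0.063 on the log2 scale. For miR-30c it lay between ischemia-reperfusion replicate 1 and sham replicate 2, and was smaller than the scanner error of their difference (0.17). For miR-30a and miR-30e it lay between ischemia-reperfusion replicate 1 and sham replicate 1. Their scaled levels there were 2.10 ± 0.16 and 2.17 ± 0.17 for miR-30a, and 1.03 ± 0.08 and 1.08 ± 0.09 for miR-30e (scanner error).

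**Figure D2:**
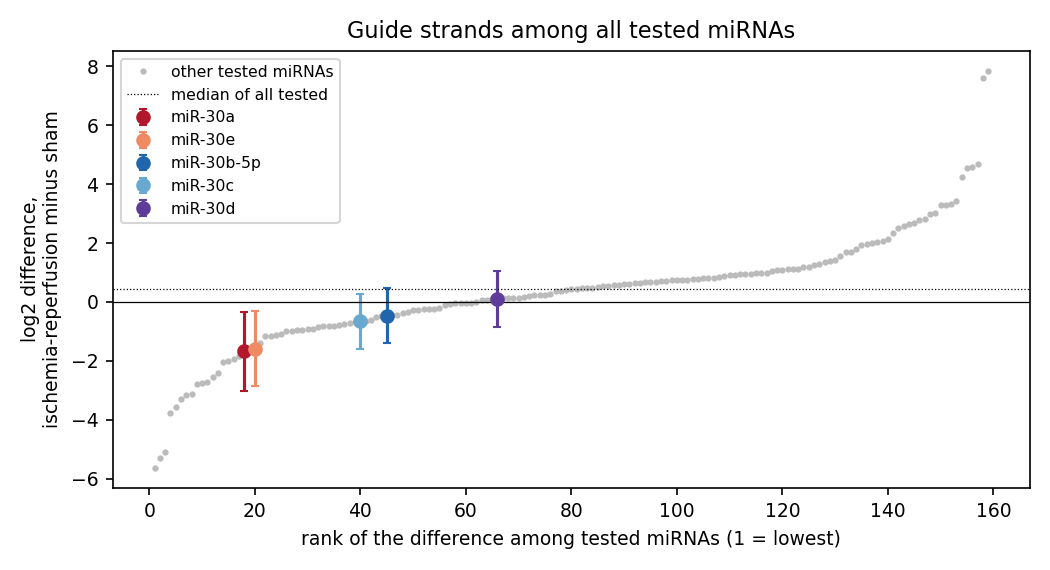
Log2 difference of each of the 159 tested miRNAs, ischemia-reperfusion minus sham, in rank order, with the 5 guides in colour and bars for their SE. miR-30a and miR-30e stand at ranks 18 and 20 from the lowest, miR-30c and miR-30b-5p at 40 and 45 and miR-30d at 66, all below the median of all tested miRNAs (0.45).

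The 2 ischemia-reperfusion arrays gave different pictures of the family. On replicate 1 the guides differed from the sham mean by −0.362 to 0.43 (median −0.157) on the log2 scale, where the median of all tested miRNAs was 0.056. On replicate 2 they differed by −3.26 to −0.226 (median −0.96), where the median of all tested miRNAs was 0.76. These comparisons share the sham arrays, and each sets 1 array against them, so a test of them has to assume that the lone array varies like the sham arrays. Under that assumption limma called 0 guides on either array, with an adjusted p of 0.0957 or more. If the library labelled ischemia-reperfusion replicate 2 is not gracilis, its values and every ischemia-reperfusion mean that includes it do not describe injured muscle. On replicate 1, where the summed muscle signal was 61.7% of all signal against 53.8% and 61.4% on the sham arrays, the 5 guides differed from the sham mean by at most 0.43. The muscle sum on replicate 1 was mostly miR-133b (75842 of 90702 units), and single muscle miRNAs differed more between arrays. For miR-1 the signal was 6891 units on replicate 1, against 90039 and 8359 units on the sham arrays.

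The summed signal of the 5 guides was 4712 and 135 units on the ischemia-reperfusion arrays, against 17618 and 6033 units on the sham arrays. Scaled, the sum was 4.73 and 1.47 on the ischemia-reperfusion arrays, against 5.21 and 5.15 on the sham arrays. It made up 3.21% and 1.16% of all signal on the ischemia-reperfusion arrays, against 4.47% and 3.27% on the sham arrays. With the 5 skeletal muscle miRNAs taken out of the total, it made up 8.38% and 1.16% on the ischemia-reperfusion arrays, against 9.68% and 8.47% on the sham arrays. On the log2 scale the scaled sum was 2.24 and 0.555 on the ischemia-reperfusion arrays, against 2.38 and 2.37 on the sham arrays. The log2 difference was −0.97, with an SD of 0.84 pooled over 2 groups of very unlike spread. It was −0.13 with ischemia-reperfusion replicate 2 left out and −1.82 with replicate 1 left out.

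The makeup of the family signal also set ischemia-reperfusion replicate 2 apart. These are shares of signal and not of molecules, because each probe responds differently. miR-30a took 44.4% and 15.9% of the summed signal on the ischemia-reperfusion arrays (scanner error 2.16 and 2.02 points), against 41.6% and 45.0% on the sham arrays (2.19 and 2.18 points). miR-30e took 21.9% and 9.78% on the ischemia-reperfusion arrays, against 20.7% and 23.9% on the sham arrays. The shares of both were lowest on replicate 2, and on the other 3 arrays each stayed within 4 points.

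miR-30c took 13.3% and 28.3% of the summed signal on the ischemia-reperfusion arrays, against 19.6% and 12.5% on the sham arrays. miR-30d took 12.5% and 25.5% on the ischemia-reperfusion arrays, against 6.04% and 11.9% on the sham arrays. miR-30b-5p took 7.97% and 20.5% on the ischemia-reperfusion arrays, against 11.97% and 6.76% on the sham arrays. Each of these 3 had its highest share on replicate 2, and on ischemia-reperfusion replicate 1 the shares of miR-30a, miR-30e, miR-30c and miR-30b-5p lay between those of the sham arrays, while that of miR-30d lay above both.

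**Figure D3:**
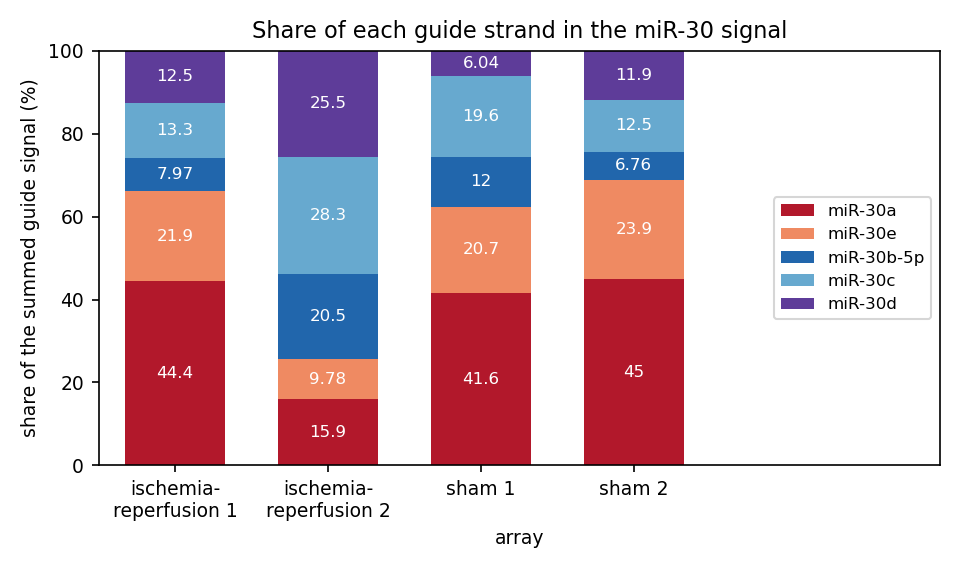
Share of each guide in the summed signal of the 5 guides, in percent, 1 bar per array. miR-30a and miR-30e (red tones) fill most of the bar on ischemia-reperfusion replicate 1 and both sham arrays, and miR-30b-5p, miR-30c and miR-30d (blue and purple) most of it on ischemia-reperfusion replicate 2.

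The balance of miR-30a and miR-30e against miR-30b-5p, miR-30c and miR-30d was measured within each array, as the ratio of their summed signals, so that no scaling by 1 factor per array enters it. The ratio was 1.96 and 0.346 on the ischemia-reperfusion arrays, against 1.66 and 2.22 on the sham arrays. On the log2 scale this was 0.97 ± 0.11 and −1.53 ± 0.19 (scanner error) on the ischemia-reperfusion arrays, against 0.73 ± 0.11 and 1.15 ± 0.11 on the sham arrays. Replicate 1 lay between the sham arrays, and replicate 2 lay 2.47 below their mean, with 0.42 between the sham arrays. The difference between the group means was −1.22, within the 2.50 between the ischemia-reperfusion replicates. With replicate 2 left out that difference was 0.032, and with ischemia-reperfusion replicate 1 left out it was −2.47. No p is given, because the balance is a score over the members. Unequal ratios show that the strand signals differed unequally between arrays, not which of them stayed the same. On replicate 2 miR-30a and miR-30e gave 21.5 and 13.2 units, where undetected signals reached 9.15 units.

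The balance depended on where miR-30d was placed. With miR-30d joined to miR-30a and miR-30e, the log2 balance was 1.89 and 0.070 on the ischemia-reperfusion arrays, against 1.12 and 2.07 on the sham arrays, a difference of −0.61. Against miR-30d alone, the summed miR-30a and miR-30e signal stood at 2.41 and 0.011 on the log2 scale on the ischemia-reperfusion arrays, against 3.37 and 2.54 on the sham arrays. Against miR-30b-5p and miR-30c it stood at 1.64 and −0.92 on the ischemia-reperfusion arrays, against 0.98 and 1.84 on the sham arrays. Replicate 2 had the lowest value in all 4 groupings, and sham replicate 1 was below sham replicate 2 in all but the ratio to miR-30d alone.

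**Figure D4:**
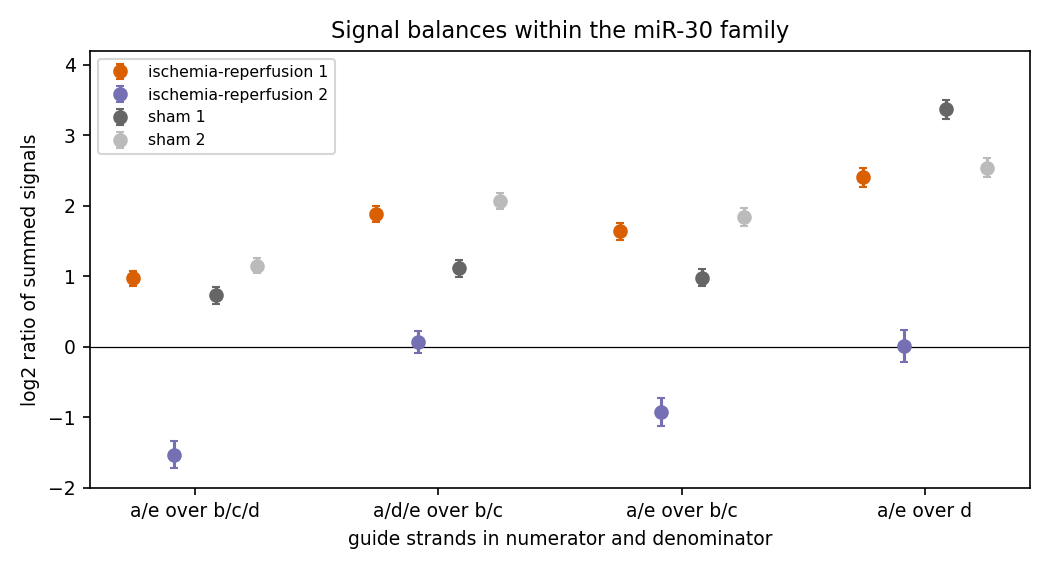
Log2 ratio of summed signals for 4 groupings of the guides on each array, with bars for the scanner error. Ischemia-reperfusion replicate 2 is lowest in each grouping (−1.53 for a/e over b/c/d), and ischemia-reperfusion replicate 1 lies between the sham arrays in the first 3 groupings.

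Within the family, 2 of the 10 pairs of guides kept nearly the same signal ratio on all arrays. The ratio of miR-30a to miR-30e was 2.03 and 1.63 on the ischemia-reperfusion arrays, against 2.01 and 1.88 on the sham arrays, a range of 0.32 on the log2 scale where the scanner error of a ratio was 0.16 to 0.36. These guides differ at 1 base and lie on different chromosomes. The ratio of miR-30b-5p to miR-30c was 0.599 and 0.722 on the ischemia-reperfusion arrays, against 0.610 and 0.542 on the sham arrays, a range of 0.41. The scanner error of this ratio was 0.17 to 0.23, smaller than that range. The SD of the log2 ratio over the 4 arrays was 0.15 and 0.17 for these pairs, against a median of 1.18 over all 3003 pairs of miRNAs detected on every array, of which 1.07% and 1.40% had a smaller SD.

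The guides of the neighbouring hairpins Mir30b and Mir30d did not keep such a ratio. miR-30b-5p and miR-30d had a signal ratio of 0.638 and 0.802 on the ischemia-reperfusion arrays, against 1.98 and 0.570 on the sham arrays. This pair had a range of 1.80 on the log2 scale, and sham replicate 1 was the array that stood off. The leukocyte and endothelial sums given above also set that array apart, and their part in this ratio was not tested. The ratio of miR-30c to miR-30d was likewise 1.07 and 1.11 on the ischemia-reperfusion arrays, against 3.25 and 1.05 on the sham arrays. Leaving out ischemia-reperfusion replicate 2 did not alter the range of either pair, whereas for miR-30a against miR-30d it went to 0.96, against 3.47 over all 4 arrays. Probe sequences were not used here, so how well a probe tells near-identical guides apart was not tested.

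The other products of the family were the 6 passenger strands and miR-384-5p. Of these 7 miRNAs 4 were tested, 2 had a positive and 2 a negative difference, and 0 passed limma's test with Benjamini-Hochberg adjustment, against 0% of the tested miRNAs in each direction. The median difference was −0.51. Among the tested strands, miR-30a*, miR-30e* and miR-30b-3p qualified through the sham arrays alone, because only that group detected them on both arrays. Entering in this way favours negative differences, so the count of signs gives no direction for these strands. miR-384-5p, which has the miR-30 seed, was detected on 0 of 4 arrays (−2.76 to 1.31 units).

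miR-30a* gave 79.4 and 1.20 units on the ischemia-reperfusion arrays, against 678 and 96.0 units on the sham arrays, and was below detection on replicate 2. miR-30e* gave 50.4 and 2.82 units on the ischemia-reperfusion arrays, against 465 and 61.9 units on the sham arrays, and was below detection on the same array. The undetected signals of replicate 2 entered the log2 differences as measured, though their scanner errors were 2.52 and 2.54 units. These differences were −1.99 ± 1.28 for miR-30a* and −1.12 ± 1.02 for miR-30e* (SE, n = 2 per group; limma adjusted p = 0.817 for both). Since both strands entered the test by their detection in sham muscle, the negative signs are partly built in and are not read as a change. The ratio of miR-30a to miR-30a* was 26.3 on ischemia-reperfusion replicate 1, against 10.8 and 28.3 on the sham arrays. That of miR-30e to miR-30e* was 20.4, against 7.85 and 23.3. Sham replicate 1 therefore held more of these 2 passenger strands relative to their guides than sham replicate 2 did, by a margin larger than the scanner error (1.15 and 3.05 for miR-30a, 0.911 and 2.75 for miR-30e). The other 2 pairs went the opposite way. The ratio of miR-30b-5p to miR-30b-3p was 97.6 on sham replicate 1 and 34.5 on sham replicate 2, and that of miR-30c to miR-30c-2* was 36.7 and 18.6.

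The passenger strand of Mir30c2, miR-30c-2*, was the only one detected on all 4 arrays. It gave 29.8 and 10.5 units on the ischemia-reperfusion arrays, against 94.1 and 40.5 units on the sham arrays, a log2 difference of 0.91 ± 1.08 after scaling (SE, n = 2 per group; limma adjusted p = 0.817). Its guide over passenger ratio was 21.1 and 3.64 on the ischemia-reperfusion arrays, against 36.7 and 18.6 on the sham arrays. The guide signal can also come from Mir30c1, so this is not a ratio of the strands of 1 hairpin. For this pair the lowest ratio was that of replicate 2, where the passenger signal had a scanner error of 2.73 units. miR-30b-3p was below detection on replicate 2 (0.730 units, scanner error 1.78 units), and its difference of 0.087 ± 0.91 includes that signal. miR-30c-1* was detected on ischemia-reperfusion replicate 1 and sham replicate 2, and miR-30d* on sham replicate 2 alone.

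The profile of the summed guide signal over the 4 arrays was set against those of the 73 other miRNAs detected everywhere, by the root-mean-square difference of their centred log2 signals, which a scaling of the arrays does not alter. The nearest was miR-497 (0.047), followed by miR-195 (0.15), miR-29c (0.26), miR-22 (0.34) and let-7d (0.35), against a median of 1.40. miR-497 gave 427 and 13.4 units on the ischemia-reperfusion arrays, against 1673 and 583 units on the sham arrays. The parts of the family had different neighbours: miR-195 (0.52), miR-497 (0.62) and miR-29c (0.82) were nearest to miR-30a plus miR-30e, and let-7c (0.086), miR-26a (0.17) and miR-99a (0.20) to miR-30b-5p plus miR-30c plus miR-30d. let-7c gave 1366 and 95.9 units on the ischemia-reperfusion arrays, against 5449 and 1738 units on the sham arrays. These likenesses rest on 4 arrays, among which ischemia-reperfusion replicate 2 stood apart, and they are descriptions.

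Other scalings moved the guides mostly along with the median of all tested miRNAs. That median difference was 0.45 as reported, and it moved by −0.77 with the 75th percentile of all miRNAs, −0.55 with the median of the detected ones, −0.80 with quantile normalization and −2.63 without scaling. Under all 6 scalings miR-30a, miR-30e, miR-30c and miR-30b-5p kept negative differences, while that of miR-30d was positive as reported and with the sum of all signals and negative under the other 4. Relative to the median of all tested miRNAs, each guide was lower under all 6 scalings. The difference of miR-30a minus that median ran from −2.22 to −1.80 and that of miR-30d from −0.44 to −0.257, whereas with ischemia-reperfusion replicate 2 left out miR-30d lay 0.376 above the median.

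**Figure D5:**
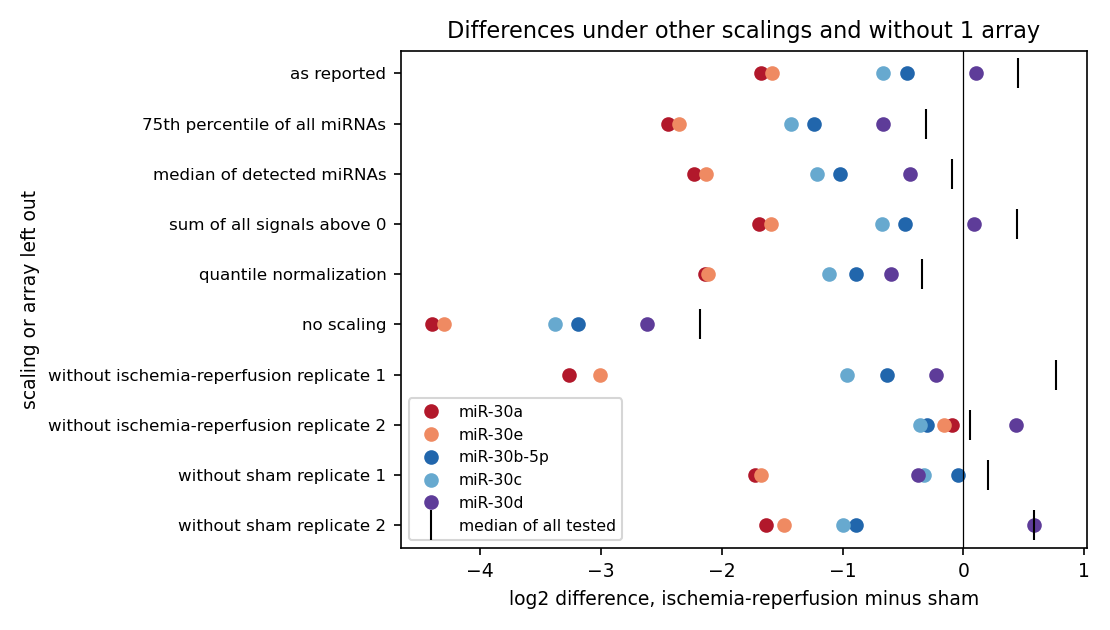
Log2 difference of each guide, ischemia-reperfusion minus sham, as reported, under 5 other scalings and without each array in turn, with the median of all tested miRNAs as a black tick. miR-30a and miR-30e lie lowest in 9 of the 10 settings and near 0 without ischemia-reperfusion replicate 2.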

How the data were processed

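Total RNA of 4 samples labelled as gracilis muscle was labelled with Cy3 and hybridised to 1-colour miRNA arrays. The submitters' processing notes name Agilent Feature Extraction 9.5.3. The deposited intensities are, per the file headers, a total signal per miRNA, an error estimated by the scanner software, and a 0 or 1 detection flag. They are background-subtracted and not scaled between arrays. The deposited value table held the same intensities (0 of 1400 differed). Slide and scan time were not stated, so no batch could be tested.

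Sample titles gave the groups, whose samples the series text calls biological replicates. Signals of 350 miRNAs, without 22 control features, were scaled by the 75th percentile over the 78 detected on all arrays, and raised, where lower, to the smallest scaled signal that any array detected (0.00157) before log2. Differences were tested with limma 3.58.1 in R 4.3.3 (lmFit and eBayes, two-sided) over 159 miRNAs, with Benjamini-Hochberg adjustment at 0.05. The test was tested on simulated data whose replicates spread less than these arrays, so that check does not show its power here. Scanner errors were propagated as independent. The members and lists were chosen with earlier results of these data known. The text names the 5 guides, the 7 passenger and same-seed miRNAs, marker miRNAs, and the 5 or 3 nearest profiles. With 2 arrays per group, precision is set by their number.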

Additional observations from a re-analysis of the deposited data

How the results depend on the processing

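Of the 18 alternatives run for each guide, none brought a guide past the threshold, and the limma adjusted p ran from 0.0957 to 1. The sign of the difference held under all 18 for miR-30a, miR-30b-5p, miR-30c and miR-30e. That of miR-30d turned to −0.66 with the 75th percentile of all miRNAs, −0.45 with the median scaling, −0.60 with quantile normalization and −2.61 without scaling. Without 1 array in turn, the differences ran from −3.26 to −0.0946 for miR-30a, −3.01 to −0.157 for miR-30e, −0.997 to −0.326 for miR-30c, −0.89 to −0.0483 for miR-30b-5p and −0.375 to 0.58 for miR-30d. Likewise the summed signal ran from −1.82 to −0.13 and the balance of a/e against b/c/d from −2.47 to 0.032. Without scaling the summed signal differed by −3.69. The number of miRNAs called was 0 as reported, 2 without scaling and 0 to 11 when 1 array was left out. It was 11 without ischemia-reperfusion replicate 1, with no guide among them. In the alternative forms of this balance, with all arrays kept, the difference was −1.29 to −0.61. Against miR-30d alone, which is not in that range, it was −1.75. With the replicate number as a block, 0 miRNAs were called and the adjusted p of the guides was 0.863 to 0.988. Same-numbered samples had deviations with an r of 0.097. With 2 arrays per group, that value cannot show whether the numbers pair the samples. Subtracting the median signal of the undetected miRNAs, an alternative chosen after seeing the data, gave a balance difference of −1.23. On ischemia-reperfusion replicate 2 undetected signals reached 9.15 units, near the 13.2 units of miR-30e, which limits the low levels there.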
